A study of Homo sapiens with 9 samples.

Results

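The comparison described here set N/TERT cells in which SGPL1 had been knocked out by CRISPR (KO) against N/TERT cells of wild-type genotype (control), 3 libraries of each. N/TERT cells are human keratinocytes of the epidermis that divide without limit because they carry the telomerase gene. The libraries were chosen by their titles and genotype labels, which gave 6 of the 9 libraries of the series; the other 3 came from SGPL1-overexpressing (OE) cells and are used only for a few values set beside the comparison. All groups were untreated. The submitters describe the libraries of a group as biological replicates. The sources used here do not give how many edited clones stand behind the KO libraries, so p values measure the spread between these libraries, and a difference between clones cannot be told apart from the effect of the edit. Poly-A selected RNA was sequenced from randomly primed cDNA as paired ends of 150 bases.

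SGPL1 encodes the lyase that, at the endoplasmic reticulum, splits sphingosine-1-phosphate (S1P) into phosphoethanolamine and a fatty aldehyde. This is the exit from the sphingolipid pathway: ceramide is cut to sphingosine, sphingosine kinases phosphorylate it, and the S1P formed is either dephosphorylated, exported to act on surface receptors, or destroyed by the lyase. In the epidermis ceramides are also the main lipids of the water barrier, and calcium drives the passage of basal keratinocytes towards cornification. Inherited loss of the lyase causes a syndrome in which scaling skin can occur, the setting named in the title of the series.

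Gene counts summed to between 8730711 and 9251703 in control libraries and between 6317564 and 9410555 in KO libraries. Levels are given as counts per 1e6 counts (CPM) after scaling of the libraries, differences as log2 fold changes of KO over control ± SE, and p values come from the quasi-likelihood test of edgeR, adjusted by the Benjamini-Hochberg method over 13390 genes. A gene is said to rise or fall where that adjusted p was under 0.05 without length adjustment, and not to pass otherwise, unless the length-adjusted test is named. Length-adjusted values come from the same fit after each library's dependence on exon length had been removed. SGPL1 itself had 83.9, 95.1 and 98.3 CPM in control libraries against 58.8, 58.3 and 61.6 CPM in KO libraries, so every KO library was below every control library while most of the transcript remained (-0.64 ± 0.09, adjusted p = 5.14e-06, length-adjusted -0.47). Counts over all exons cannot show whether these transcripts carry the edit. The keratinocyte label was checked against 14 markers, of which 12 could be tested. Of these 12, 2 rose and 9 fell, 3 and 9 with length adjustment, against 26% higher and 25.9% lower over all genes. Summed, all 14 had 27440 to 27810 CPM in control and 16450 to 18280 CPM in KO libraries. Sums of markers take in all listed genes and are CPM of the library totals, without the scaling. TP63, the master regulator of stratified epithelium, was among the 2 that rose and had 114 and 139 scaled CPM on average. Of defining markers of blood and pigment cells, PTPRC, CD3E, CD68, TYR and SOX10 had 0 counts in all 6 libraries. Summed, the blood, endothelial and immune markers had 4.0 to 6.56 CPM in control and 6.7 to 8.55 CPM in KO libraries, and the melanocyte markers 92.3 to 103 and 65.1 to 73.8 CPM. Other listed melanocyte markers thus had counts: 2 of 9 could be tested, and 1 of them fell in both fits. The summed markers of simple epithelium had 1179 to 1354 CPM in control and 1455 to 1589 CPM in KO libraries, those of fibroblasts 83.1 to 93.3 and 73.6 to 85.6 CPM.

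**Figure D1:**
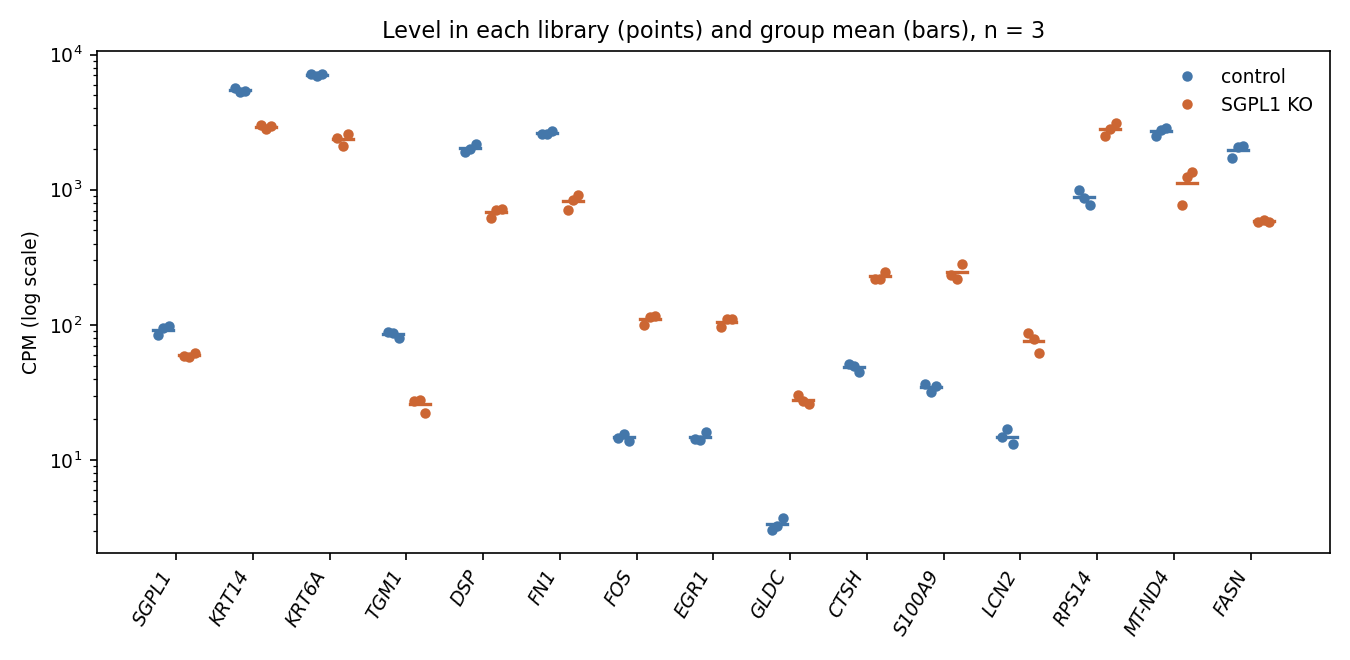
Level of 15 genes in each library, in CPM on a log axis. Points are the 3 control and the 3 KO libraries, bars the group means. For every gene drawn the groups are separate, from SGPL1 (83.9 to 98.3 CPM in control, 58.3 to 61.6 in KO) to FOS (13.8 to 15.7 against 100.1 to 116).

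A majority of tested genes differed between KO and control cells: 6951 of 13390 (51.9%), with 3485 higher (26%) and 3466 lower (25.9%) in KO cells. Differences of at least 2-fold were fewer, 1724 (12.9%), with 851 higher (6.36%) and 873 lower (6.52%), and 1314 (9.81%) after length adjustment, 594 higher (4.44%) and 720 lower (5.38%). Of 11849 protein-coding genes 54.5% differed. KO and control libraries did not overlap in CPM at 7963 genes (59.5%), with KO above at 4023 (30%) and below at 3940 (29.4%). The median fold change over all tested genes was -0.00. These shares are the background for the counts of each gene list that follows.

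Part of this difference ran along gene length. Genes were sorted into 10 bins by exon length. Among the shortest bin of 1339 genes, with a median of 1178 exonic bases, 43.6% rose and 6.42% fell in KO cells (median 0.52). Among the longest bin, with a median of 13560 bases, 10.8% rose and 53.5% fell (median -0.45). Each KO library showed it, losing 0.23, 0.20 and 0.22 log2 units per doubling of exon length relative to the mean of the 3 control libraries. Each control library, set against the other control libraries, had a slope of -0.04, 0.01 and 0.03. Taken over genes, which are no independent replicates of each other, fold change and exon length had a rank correlation of -0.365, and fold change and principal transcript length one of -0.401. With the adjustment the first became 0.018, and the shortest and longest bins had 20.5% and 28.2% higher and 17.9% and 29% lower. It left 6493 genes called (48.5%), 3293 higher (24.6%) and 3200 lower (23.9%). Of all genes, 5332 (39.8%) were called in the same direction with and without the adjustment, 2674 higher (20%) and 2658 lower (19.9%), 1604 (12%) only without it, 1146 (8.56%) only with it and 15 (0.112%) in opposite directions. A rank correlation of -0.120 with the length of the principal transcript remained after the adjustment, and that with GC content went from -0.179 to -0.310.

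**Figure D2:**
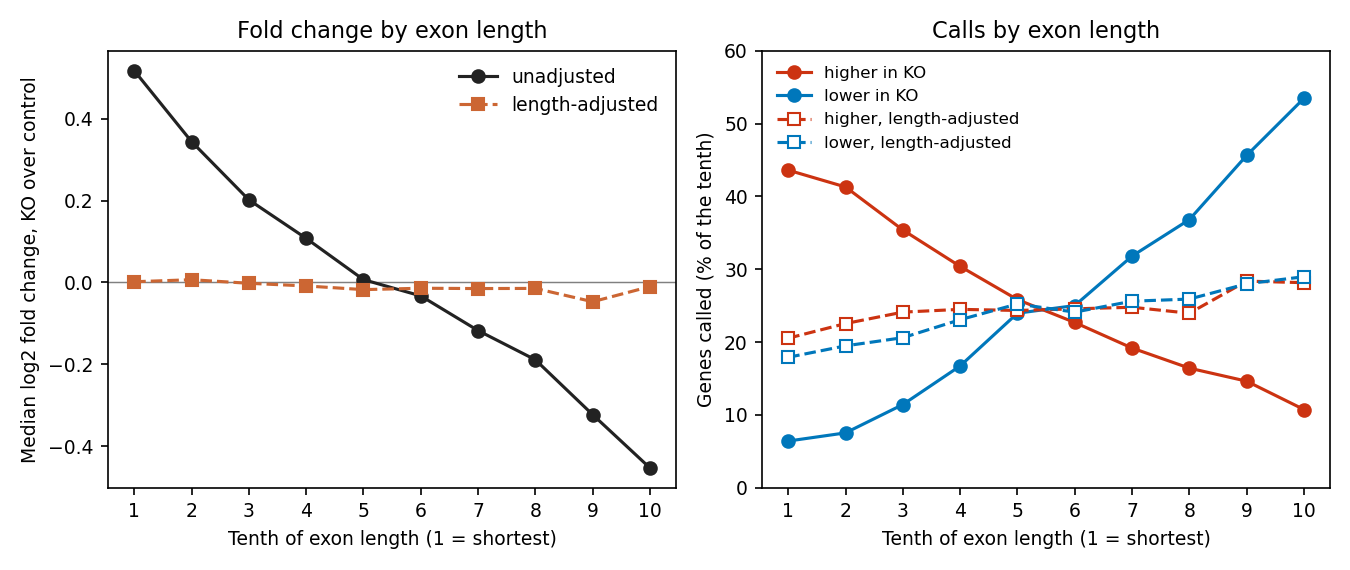
Left, median log2 fold change of KO over control in 10 bins of exon length (1339 genes each, 1 = shortest). Right, percent of genes called higher or lower in each bin. Solid lines are unadjusted, dashed lines length-adjusted: the unadjusted median runs from 0.52 to -0.45 and the adjusted one stays near 0.

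Genes at the ends of this scale show what the adjustment does. NFIA, a transcription factor gene with 55886 exonic bases in the annotation, had 38.9, 39.6 and 42.2 CPM in control and 28.9, 30.1 and 35.2 CPM in KO libraries. Its KO libraries were lower (-0.36 ± 0.12, adjusted p = 0.0104; 0.0516 without KO replicate 1), and the length-adjusted value was positive (0.46, adjusted p = 0.00165). SPG7, a protease of the inner mitochondrial membrane, the ubiquitin ligase ARIH1, the actin regulator NCKAP1 and the RNA-binding protein MSI2 also went from lower (-0.38, -0.31, -0.27 and -0.31) to higher (0.32, 0.27, 0.31 and 0.26). S100A11, with 649 exonic bases, went the other way. It had 583, 497 and 511 CPM in control and 691, 548 and 638 CPM in KO libraries, which overlap, and values of 0.24 ± 0.09 unadjusted (adjusted p = 0.0259) and -0.40 adjusted (1.17e-04). The unadjusted call for S100A11 was lost without control replicate 2 (adjusted p = 0.138), control replicate 3 (0.108), KO replicate 1 (0.163) or KO replicate 3 (0.0627). No direction is given for these 6 genes.

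The genes named here for the largest rises were chosen among genes called higher in both fits, with KO libraries all above the controls. ITGB2, the beta chain of the leukocyte integrins (GRCh38 chromosome 21, 44885953 to 44931989), had 0.437, 0.843 and 0.225 CPM in control and 7.35, 5.83 and 5.92 CPM in KO libraries (3.62 ± 0.52, length-adjusted 3.75, adjusted p = 3.22e-06). Of 14 markers of blood, endothelial and immune cells, PTPRC had no count in any of these libraries. The only one that could be tested, the monocyte coreceptor CD14, had 4.8, 2.32 and 3.37 CPM in control and 7.47, 4.6 and 7.78 CPM in KO libraries, which overlap. It was called higher (0.91 ± 0.35, adjusted p = 0.0326) but not with length adjustment (adjusted p = 0.254), nor without control replicate 2 (0.155), control replicate 3 (0.0844), KO replicate 1 (0.116) or KO replicate 3 (0.106). GLDC, the decarboxylase of the mitochondrial glycine cleavage system (chromosome 9, 6532467 to 6645729), had 3.06, 3.27 and 3.71 CPM against 30.4, 27.4 and 26.2 (3.06 ± 0.21, length-adjusted 3.30, adjusted p = 7.58e-11). TFPI, an inhibitor of the tissue factor pathway of coagulation, had 2.62, 2.63 and 2.25 CPM against 14.8, 19.2 and 19.3 (2.82 ± 0.33, length-adjusted 3.201). The phosphatase DUSP13 (3.49 ± 0.51), the secreted glycoprotein LRG1 (3.02 ± 0.44) and the microtubule-associated MAP7D2 (2.57 ± 0.35) were chosen by the same rule. CADPS2, a priming factor for vesicle exocytosis, was uneven: 11.4 and 10.2 CPM in KO replicates 1 and 2 but 1.69 in KO replicate 3, against 0.655 to 1.58 CPM in control (3.02 ± 0.49, adjusted p = 1.60e-05). Without control replicate 2 the value of ITGB2 was 4.21.

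At the other end, 13 of the 13390 tested genes had no count in any KO library, and none was without counts in all control libraries. All 9 libraries entered the filter, so genes low in control libraries could be tested through their OE counts. PXDN, the basement membrane peroxidase whose product crosslinks collagen IV (chromosome 2, 1631887 to 1744852), had 229, 251 and 250 counts in the control libraries and 0 in each KO library, at least 204-fold lower (floor of 3 counts over the group). The 3 OE libraries had 0 counts too, so its reads were missing in OE cells as well. ARMCX1 and ARMCX4, neighbours on chromosome X of a family linked to mitochondrial transport, had 129 and 89 control counts and were at least 36.1-fold and 24.9-fold lower. OE libraries had 349 and 119 counts of them. TUSC1 had 75 control counts (at least 21-fold lower), LYNX1 74 (at least 20.7-fold), IQCA1 64 (at least 17.9-fold), M1AP 50 (at least 14-fold), ZNF572 46 (at least 12.9-fold) and TBC1D3L 42 (at least 11.8-fold). LYNX1 was nearly without reads in OE libraries as well, with 2 counts in all. The others named with it had from 25 (TBC1D3L) to 111 (IQCA1) OE counts. The noncoding LINC02381 and ENSG00000267523 had 25 and 13 control counts and 113 and 42 OE counts. SGCE and ENSG00000285831 had 8 and 6 control counts and 173 and 65 OE counts. Their calls were lost when single libraries were left out (adjusted p up to 0.0743 and 0.123). NID2, a nidogen that links laminin and collagen IV, had 58, 75 and 67 counts in control libraries and 2 counts in all in KO libraries, both in KO replicate 2. Its OE libraries had 64, 82 and 87 counts. Among falls with reads left, the transcription factor CUX2 had 40.4, 39.8 and 38.8 CPM in control and 5.42, 6.06 and 6.6 in KO libraries (-2.73 ± 0.17, length-adjusted -2.56). The DNA glycosylase NEIL1 had 8.4, 8.11 and 8.88 CPM against 2.41, 0.561 and 1.01 (-2.65 ± 0.37, and -3.48 without KO replicate 1). EYA2, a phosphatase and coactivator, the hexose transporter SLC2A6, the neuronal cytoskeletal protein DPYSL3, the phosphodiesterase PDE1C, the imprinted gene MEST and the peptide hormone UCN2 fell by 2.52 to 3.26 on the log2 scale. They were chosen by the same rule as the rises.

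Genes of sphingolipid metabolism rose more often than they fell. Of 36 tested members of 38 listed, 17 rose and 6 fell (median 0.25), and with length adjustment 17 rose and 5 fell (median 0.22), against 26% higher and 25.9% lower over all genes. Of enzymes that make ceramide, the subunits of serine palmitoyltransferase SPTLC1 (0.58 ± 0.09, length-adjusted 0.69), SPTLC3 (0.68 ± 0.14, 0.89) and SPTSSA (0.68 ± 0.09, 0.41) rose, as did the ceramide synthases CERS4 and CERS5 (0.59 ± 0.15, 0.71). CERS4 had 2.07, 2.11 and 3.6 CPM in control and 9.76, 12.7 and 11.2 CPM in KO libraries, which do not overlap (2.11 ± 0.27, adjusted p = 7.37e-07). ORMDL2, which restrains serine palmitoyltransferase, rose from 14.5 to 31.9 CPM (1.12 ± 0.18, length-adjusted 0.86). CERS2 (0.02) and CERS6 (-0.01) did not pass, and SPTLC2 was higher with length adjustment only (-0.03, length-adjusted 0.21).

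Among enzymes that take ceramide to sphingosine, ASAH1, the acid ceramidase of lysosomes, had 182, 152 and 157 CPM in control and 275, 278 and 284 CPM in KO libraries (0.77 ± 0.08, length-adjusted 1.25, adjusted p = 4.49e-08). The Golgi ceramidase ACER2 rose from 5.91 to 19.1 CPM (1.69 ± 0.25, length-adjusted 1.44), and ACER3 fell (-0.33 ± 0.13, length-adjusted -0.13, the latter not called). Around S1P itself the kinase SPHK2 had 15.8, 18.7 and 17.3 CPM against 9.16, 8.63 and 8.96 (-0.96 ± 0.17, length-adjusted -0.89, adjusted p = 5.40e-05). SPHK1 had 4.15, 6.95 and 4.94 CPM against 2.89, 7.62 and 3.89, groups that overlap (-0.13 ± 0.32, adjusted p = 0.746). SGPP1, the phosphatase that returns S1P to sphingosine, had 78.7, 82.6 and 78.8 CPM in control and 152, 145 and 117 CPM in KO libraries (0.79 ± 0.10, length-adjusted 0.61). ALDH3A2, which oxidises the aldehyde released by the lyase, rose too (0.42 ± 0.08, length-adjusted 0.90). Lysosomal breakdown of glycosphingolipids showed HEXA (0.85 ± 0.20), GLB1 (0.35 ± 0.09) and the activator precursor PSAP (0.58 ± 0.08) higher, with the same direction and calls after length adjustment. SMPD4 and GBA2 fell (-0.68 ± 0.09 and -0.44 ± 0.15, length-adjusted -0.52 and -0.45).

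None of the 3 S1P receptors followed here passed the unadjusted test. S1PR5 had 23.9, 36.1 and 27.1 CPM in control and 34.7, 36.6 and 34.5 CPM in KO libraries (0.28 ± 0.15, adjusted p = 0.129), overlapping because of control replicate 2, without which it passed (0.47, adjusted p = 0.0207). S1PR3 had 24.1, 17.3 and 21.0 CPM against 19.0, 25.6 and 17.4 (0.00 ± 0.17, adjusted p = 0.989) and was called higher only with length adjustment (0.44, adjusted p = 0.0259). S1PR2 had 2.18, 4.42 and 2.47 against 4.58, 4.82 and 2.37 CPM (adjusted p = 0.359). Of 12 tested genes of receptors, exporters and surface lipid phosphatases (13 listed), 3 rose and 1 fell. ABCG2, a multidrug transporter that can carry S1P, had 23.4, 26.2 and 26.4 CPM against 55.6, 52.8 and 61.4 (1.16 ± 0.11, length-adjusted 1.19). The surface phosphatases PLPP1 (0.95 ± 0.22) and PLPP2 (0.87 ± 0.13) also rose, and the exporter ABCC1 fell (-0.57 ± 0.10, length-adjusted -0.40). SPNS2, the dedicated S1P exporter, was low (1.19 and 0.703 CPM) and did not pass.

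Genes of phosphoethanolamine and phospholipid synthesis, the choline branch included, were mixed: 5 rose and 4 fell of 17 tested (19 listed), and 6 and 3 with length adjustment. In each fit 52.9% were called, near the 51.9% (48.5% adjusted) over all genes. The ethanolamine kinase ETNK1 (0.49 ± 0.12, length-adjusted 0.92), the choline and ethanolamine phosphotransferase CEPT1 (0.53 ± 0.11, 0.74) and the phosphatidylserine synthase PTDSS1 (0.50 ± 0.09, 0.57) rose. LPIN1, the phosphatidate phosphatase lipin, had 123, 119.98 and 131 CPM in control and 39.5, 42.0 and 43.6 CPM in KO libraries (-1.58 ± 0.11, length-adjusted -1.19), and the choline-branch enzyme PCYT1A fell (-0.55 ± 0.08, -0.36). Its ethanolamine counterpart PCYT2 was lower before adjustment only (-0.32 ± 0.10, length-adjusted -0.18).

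Several steps of de novo fatty acid synthesis were lower. ACLY, which makes cytosolic acetyl-CoA, fell (-0.67 ± 0.08, length-adjusted -0.67), as did the carboxylases ACACA (-1.23 ± 0.09, -0.81) and ACACB (-1.74 ± 0.18, -1.28). FASN, fatty acid synthase, had 1709, 2063 and 2093 CPM in control and 577, 601 and 575 CPM in KO libraries, groups far apart (-1.74 ± 0.09, length-adjusted -1.47, adjusted p = 2.04e-12). The desaturase SCD (-0.60 ± 0.08, length-adjusted -0.59) and the regulators SREBF1 (-0.76 ± 0.09, -0.56) and MLXIP (-1.04 ± 0.09, -0.59) fell. Of the elongation genes, ELOVL5 (0.40 ± 0.08), ELOVL7 (0.49 ± 0.14) and HSD17B12 (0.40 ± 0.09) rose and stayed called with length adjustment, while ELOVL1 rose without it only (0.36 ± 0.08, length-adjusted 0.06) and ELOVL4, which makes the very long chains of barrier ceramides, did not pass (0.34 ± 0.20). In all 7 of 25 tested fatty acid genes (28 listed) rose and 10 fell, 8 and 11 with length adjustment. Cholesterol genes divided similarly, 8 rising and 10 falling of 25 (6 and 10 adjusted). Lanosterol synthase LSS (-1.04 ± 0.10), squalene epoxidase SQLE (-0.69 ± 0.09) and the sterol sensor INSIG1 (-0.60 ± 0.12) fell and remained called when adjusted. FDFT1 (0.52 ± 0.08) and SC5D (0.60 ± 0.08) rose.

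Calcium genes moved in both directions. Of 27 tested (33 listed) 11 rose and 10 fell, and 10 and 6 with length adjustment (medians -0.06 and -0.09). The share called was 77.8% (59.3% adjusted), against 51.9% (48.5%) over all genes. ITPR3, the inositol trisphosphate receptor, had 301, 329.8 and 352 CPM in control and 113, 105 and 106 CPM in KO libraries (-1.60 ± 0.11, length-adjusted -1.30), and ITPR2 (from 30.9 to 15.5 CPM on average, length-adjusted -0.55) and the phospholipases PLCG1 (-1.26 ± 0.10, -0.97), PLCD1 (-0.62 ± 0.09, -0.69) and PLCB3 (-0.56 ± 0.09, -0.51) fell with it. The calcium-binding calmodulin genes CALM2 (0.96 ± 0.09) and CALM3 (0.21 ± 0.08) rose in both fits. Channels of store-operated entry differed among themselves: ORAI2 fell (-1.21 ± 0.18, length-adjusted -0.85), ORAI3 rose (0.65 ± 0.16, 0.38) and ORAI1 did not pass (0.23 ± 0.15). ATP2A2, the pump of the endoplasmic reticulum, had 593, 637 and 648 CPM against 432, 449 and 398 (-0.55 ± 0.08, but length-adjusted -0.11, adjusted p = 0.204). ATP2C1, the pump of the Golgi, rose in both (0.31 ± 0.08, length-adjusted 0.52). The store sensor STIM1 was lower before adjustment only (-0.26 ± 0.09, adjusted p = 0.022, length-adjusted -0.11), and leaving out control replicate 2 (0.0669), control replicate 3 (0.0861) or KO replicate 3 (0.128) ended the call. The S100 proteins, short calcium-binding proteins, had 9 of 12 tested members higher and 1 lower (13 listed), but 5 and 5 with length adjustment, and their median went from 0.48 to -0.02. S100A9 had 36.8, 31.8 and 35.5 CPM against 234, 220.5 and 284 (2.82 ± 0.13, length-adjusted 2.16), and its partner S100A8 rose as well (1.58 ± 0.25, 1.01). S100A6 (0.92), S100A13 (0.80) and S100P (0.29) were the other length-adjusted rises.

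Structural genes of basal keratinocytes were mostly lower. Here as elsewhere in bulk RNA, fewer cells of a kind and less RNA per cell cannot be told apart. Of 18 basal and hemidesmosome genes, all tested, 2 rose and 11 fell (median -0.44), and 2 and 10 with length adjustment (median -0.28). The basal keratins KRT5 (chromosome 12, 52514575 to 52520530) and KRT14 (chromosome 17, 41582279 to 41586895) had 10818, 11069.9 and 11161 and 5648, 5313 and 5399 CPM in control libraries. In KO libraries they had 6448, 5618 and 5483 and 3011, 2805 and 2971 CPM, without overlap (-0.91 ± 0.08 and -0.90 ± 0.08, length-adjusted -0.99 and -1.24). The exception among basal keratins was KRT15, with 2785 and 3173 CPM on average (0.19 ± 0.10, not called; length-adjusted 0.25, called). COL7A1, the collagen of anchoring fibrils, had 609, 749.7 and 709.5 CPM against 113, 147 and 121 (-2.44 ± 0.11, length-adjusted -2.08, adjusted p = 1.20e-13). The hemidesmosome components PLEC (-1.99 ± 0.12, length-adjusted -1.49), DST (-1.21 ± 0.10, -0.43), COL17A1 (-0.86 ± 0.08, -0.72), ITGA6 (-0.62 ± 0.08, -0.50) and ITGB4 (-0.51 ± 0.08, -0.39) all fell. DST, with 47883 exonic bases, lost most of its fold to the adjustment. ITGB1 (0.09) and the adhesion adaptor FERMT1 (0.07) did not pass.

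Genes of the extracellular matrix were mostly lower: 18 of 26 tested genes of basement membrane and matrix fell and 5 rose (28 listed; median -0.77), and 16 and 4 with length adjustment (median -0.58). FN1, fibronectin, had 2601, 2566 and 2712 CPM in control and 707, 842 and 913 CPM in KO libraries (-1.68 ± 0.10, length-adjusted -1.17). Fibrillin FBN2 (-2.08 ± 0.11, -1.65), thrombospondin THBS1 (-1.74 ± 0.10, -1.49), the collagen IV chains COL4A1 (-1.65 ± 0.12, -1.18) and COL4A2 (-1.42 ± 0.08, -0.88) and the proteoglycan HSPG2 (-1.35 ± 0.12, -0.83) fell. Rises were few: SPARC, a collagen-binding glycoprotein, had 84.6, 85.0 and 93.0 CPM against 239, 242 and 243 (1.46 ± 0.08, length-adjusted 1.44). NID1 rose from 21.8 to 80.0 CPM (1.88 ± 0.12, length-adjusted 1.93) where its relative NID2 was all but gone, and the crosslinking enzyme LOXL2 (1.32 ± 0.27) and laminin LAMC1 (0.41 ± 0.10) rose.

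Cornification genes moved in both directions. TGM1, the transglutaminase of the envelope, had 89.4, 87.7 and 79.7 CPM in control and 27.2, 27.8 and 22.5 CPM in KO libraries (-1.72 ± 0.11, length-adjusted -1.85). The envelope plakins EVPL, with 396, 444 and 435 CPM against 139, 146 and 129.7 (-1.62 ± 0.10, -1.46), and PPL (-1.48 ± 0.10, -1.31) fell likewise, and so did sciellin SCEL (-0.56 ± 0.09, -0.63). In the other direction went the suprabasal keratin KRT10, with 61.9, 57.1 and 50.6 CPM against 122, 92.6 and 100.95 (0.90 ± 0.11, 0.54), the desquamation proteases KLK5 (0.84 ± 0.08, 0.41) and KLK7 (1.12 ± 0.12, 0.82), TGM5 (1.38 ± 0.24, 1.24) and the homeodomain protein HOPX. HOPX had 10.1, 6.43 and 5.06 CPM in control and 33.7, 35.9 and 43.1 CPM in KO libraries (2.37 ± 0.21, length-adjusted 2.55). Involucrin IVL overlapped, with 106, 98.5 and 93.3 against 124, 100.1 and 108 CPM (0.16 ± 0.10, adjusted p = 0.175, length-adjusted -0.19). Of 20 tested genes 7 rose and 7 fell, 7 and 9 with length adjustment, and the median changed sign from 0.20 to -0.35. A further 10 listed genes were too low to test, among them KRT1 and FLG with 0 and 10 counts over the control and 2 and 2 over the KO libraries, and LORICRIN with 0 in both.

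KRT6A, a keratin of wounded epidermis, had 7229, 6929 and 7163 CPM in control and 2403, 2107 and 2562 CPM in KO libraries (-1.59 ± 0.08, length-adjusted -1.82), and KRT16 (-0.72 ± 0.10, -1.02) and KRT17 (-0.82 ± 0.08, -1.03) fell as well. KRT6B (-2.17 ± 0.20) and KRT6C (-2.04 ± 0.31) are near-identical to KRT6A, so their separate values are uncertain. The protease inhibitor SERPINB2 fell (-1.76 ± 0.20, length-adjusted -2.02), whereas the plasminogen activator PLAT rose (1.30 ± 0.15, 1.44), and so did the near-identical pair SERPINB3 and SERPINB4 (2.02 ± 0.37 and 2.71 ± 0.70). Over the wound list 6 of 17 tested genes rose and 9 fell (20 listed), 4 and 9 with length adjustment. KRT13, a keratin of mucosal epithelium, had 9712, 8921 and 8958 CPM in control and 8058, 7328 and 7186 CPM in KO libraries (-0.29 ± 0.09, length-adjusted -0.51), and the hair keratin KRT81 2099.6, 1866 and 2008 against 3890.2, 4213 and 4249 (1.05 ± 0.09, 0.65), uncertain because other hair keratins are near-identical. Of simple epithelial keratins KRT8 had 903, 770.1 and 770.3 CPM against 1116, 1077 and 1228 (0.49 ± 0.08, length-adjusted 0.62). KRT19 rose from a low level, 2.84, 0.632 and 1.12 to 6.03, 6.06 and 5.24 CPM (1.91 ± 0.44, and 2.71 without control replicate 1), and EPCAM was higher before adjustment only (0.38 ± 0.09, length-adjusted 0.07). Of the epidermal transcription factors, TP63 (0.29 ± 0.09) and ELF3 (0.31 ± 0.11) were modestly higher in both fits, GATA3 (0.09) and EHF (0.06) did not pass, and 5 of 24 tested (28 listed) rose and 7 fell (3 and 9 adjusted). Those that fell included the 3 grainyhead-like factors GRHL1 (-0.84 ± 0.16), GRHL2 (-0.67 ± 0.09) and GRHL3, which activates TGM1. GRHL3 had 93.4, 86.7 and 93.1 CPM in control and 55.6, 46.4 and 53.1 CPM in KO libraries (-0.82 ± 0.10, length-adjusted -0.93). SOX9, a factor of hair follicle progenitors, fell from 55.7 to 31.4 CPM (-0.83 ± 0.11, -0.94).

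Junction genes moved in both directions. DSP, desmoplakin, had 1912, 1999 and 2160.2 CPM in control and 618, 709 and 720.0 CPM in KO libraries (-1.57 ± 0.10, length-adjusted -1.25). The plaque proteins JUP (-0.87 ± 0.08, -0.88), PKP1 (-0.48 ± 0.08, -0.40) and PKP3 (-0.60 ± 0.07, -0.73) and the tight junction scaffolds CGN (-1.96 ± 0.12, -1.84) and TJP1 (-1.09 ± 0.09, -0.72) fell. The cadherins DSG3 (-0.40 ± 0.09), CDH1 (-0.33 ± 0.08) and CDH3 (-0.36 ± 0.07) fell by smaller amounts and DSG2 did not pass (-0.01). GJA1, the connexin of gap junctions, had 71.4, 68.0 and 77.1 CPM against 136, 155 and 167 (1.08 ± 0.10, 0.91), and CTNNB1 (0.55 ± 0.08, 0.93) and CLDN1 (0.58 ± 0.14, 0.44) rose. Of 30 tested junction genes (31 listed), 7 rose and 16 fell, 6 and 16 with length adjustment, but 10 and 11 by principal transcript length.

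Genes of the actin cytoskeleton and of cytolinkers were mostly lower: 20 of 29 tested genes fell and 7 rose (30 listed; median -0.88), 20 and 5 with length adjustment (median -0.43). Nonmuscle myosin MYH9 had 1892, 2061 and 2052 CPM in control and 730.1, 721 and 711 CPM in KO libraries (-1.47 ± 0.08, -1.23), and the spectrin SPTAN1 579.7, 624 and 656 CPM against 183, 177 and 180.3 (-1.79 ± 0.09, -1.29). AHNAK, a giant scaffold protein of the membrane skeleton outside the list, had 2716, 2761 and 3083 CPM against 598, 834 and 918 (-1.87 ± 0.12, -1.33). TAGLN, the actin-bundling transgelin, fell (-1.99 ± 0.19, -1.89), ACTB fell (-0.33 ± 0.08, -0.38), and ACTG1 (0.63 ± 0.07, 0.40) and the myosin light chain MYL6 (1.04 ± 0.10, 1.00) rose. Of 13 tested genes in the list of YAP and TEAD targets, a pathway that reads out cytoskeletal tension, 6 fell and 2 rose (7 and 1 adjusted). TEAD1 itself had 205, 196 and 220.3 CPM against 90.4, 99.2 and 82.0 (-1.19 ± 0.10, -0.84), while the classic target CCN1 (0.23 ± 0.14) and YAP1 itself (-0.11 ± 0.08) did not pass.

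FOS and EGR1 stood out among the immediate early genes, transcription factor genes switched on within minutes by growth factor and stress signals. FOS (chromosome 14, 75278826 to 75282230) had 14.6, 15.7 and 13.8 CPM in control and 100.1, 115 and 116 CPM in KO libraries (2.90 ± 0.12, length-adjusted 2.71, adjusted p = 4.92e-14). EGR1 (chromosome 5, 138465479 to 138469303) had 14.3, 14.1 and 16.2 CPM against 96.0, 110.0 and 110.4 (2.83 ± 0.12, length-adjusted 2.63). KO and control levels of both were far apart in all libraries. Other members of the list did not move by such amounts: BTG2 (0.73 ± 0.09, 0.48) and KLF10 (0.66 ± 0.09, 0.54) rose, FOSL2 fell (-0.62 ± 0.10, -0.47), FOSB (-0.02) and MYC (-0.11) did not pass, and JUN was lower with length adjustment only (-0.06, length-adjusted -0.25). JUNB (0.58 ± 0.09, length-adjusted 0.17), ATF3 (0.60 ± 0.23, 0.51) and IER3 (0.92 ± 0.20, 0.44) were called before adjustment only. In all 8 of 21 tested genes (25 listed) rose and 4 fell, 4 and 5 with length adjustment. EGR1 is a textbook target of serum response factor, which binds the CArG box. The last 120 bases before the RefSeq start of EGR1 (RefSeq promoter table, GRCh38.p14, chr5:138465359-138465478, plus strand) are shown because they hold 2 CArG boxes, in capitals:
EGR1: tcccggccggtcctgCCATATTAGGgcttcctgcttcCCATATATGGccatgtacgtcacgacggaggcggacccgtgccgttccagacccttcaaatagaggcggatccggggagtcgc
A CArG box, whose consensus reads the same on both strands, was found in the 250 bases before the start in 1.14% of 27305 promoters. Of 20 immediate early genes with a promoter in the table, EGR1 and SRF had 2 each and the others had none by this search. Boxes farther than 250 bases upstream, or differing from the consensus, were not searched for. The search therefore cannot show that FOS or another gene lacks a CArG box. SRF itself had 58.5 and 51.5 CPM (-0.18 ± 0.11, not called).

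EGFR, the growth factor receptor that feeds the ERK pathway, had 307, 332 and 339.9 CPM in control and 193, 211 and 195 CPM in KO libraries (-0.71 ± 0.09, length-adjusted -0.30). Of its ligands, TGFA (0.11) and EREG (0.24) did not pass, AREG was lower with length adjustment only (0.06, length-adjusted -0.38), and BTC rose from a low level (0.499 to 2.05 CPM, 2.00 ± 0.66). Feedback inhibitors of ERK went both ways: SPRED1 (0.76 ± 0.15, 0.94) and PHLDA1 (0.54 ± 0.11, 0.73) rose, DUSP7 (-0.47 ± 0.09, -0.43) and SPRED2 (-0.45 ± 0.13, -0.43) fell, and DUSP6 did not pass (0.36 ± 0.22). Over the 24 genes of EGF receptors, ligands and ERK feedback 6 rose and 5 fell, 6 and 4 with length adjustment. The share called was 45.8% (41.7% adjusted), against 51.9% (48.5%) over all genes. Among 18 tested genes of the Notch pathway, which drives spinous differentiation, 4 rose and 6 fell (20 listed; 5 and 4 adjusted). Their share called, 55.6% (50% adjusted), was near that over all genes. The receptors NOTCH1 (366, 462 and 491 CPM against 235, 289 and 249; -0.77 ± 0.10, length-adjusted -0.42) and NOTCH3 (-0.63 ± 0.10, -0.35) fell, the ligand JAG1 rose with adjustment only (0.54), and the target HES1 rose without it only (0.54 ± 0.09, 0.17).

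LCN2, an iron-sequestering lipocalin, had 14.7, 16.959 and 13.1 CPM in control and 86.9, 78.5 and 62.4 CPM in KO libraries (2.35 ± 0.14, length-adjusted 1.90). Complement C3 had 46.6, 39.9 and 41.3 CPM against 153, 163 and 133 (1.81 ± 0.10, 2.02) and PTGS2, the inducible cyclooxygenase, 79.3, 68.5 and 74.6 against 141, 136 and 177 (1.03 ± 0.10, 1.03). The epithelial interleukins IL18 (0.95 ± 0.09, 0.68) and IL1B (5.1 to 12.8 CPM; 1.31 ± 0.23, 1.10) rose and the receptor antagonist IL1RN fell (-0.69 ± 0.11, -0.88). IL6, CXCL8 and TNF had at most 2 counts over the 3 libraries of either group and could not be tested, and NFKBIA, the feedback inhibitor of NF-kB, did not pass (0.11). Of 17 tested genes (29 listed) 7 rose and 3 fell, 6 and 3 with length adjustment. In the interferon and class I presentation list 9 of 28 tested rose and 4 fell (30 listed; 7 and 5 adjusted). B2M, the light chain of class I molecules, had 301, 255 and 246 CPM against 664, 654 and 685 (1.32 ± 0.09, 1.40) and the immunoproteasome subunit PSMB8 29.4, 38.0 and 33.3 against 86.9, 103 and 87.4 (1.46 ± 0.12, 1.30). The antiviral OAS3 fell (-0.995 ± 0.11, -0.80), and MX1 (-0.30), IFIT1 (-0.32) and ISG15 (0.30) did not pass.

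Lysosomal genes rose more often than they fell: 17 of 42, all tested, rose and 4 fell (median 0.20), 19 and 4 with length adjustment (median 0.20). CTSH, a cathepsin, had 51.1, 50.035 and 44.7 CPM in control and 218, 219 and 248 CPM in KO libraries (2.23 ± 0.10, length-adjusted 2.29, adjusted p = 1.24e-13). NPC2, which carries cholesterol inside the lysosome, had 102, 87.6 and 87.4 CPM against 228, 220.5 and 225 (1.28 ± 0.09, 1.00), and NPC1, its membrane partner, fell before adjustment only (-0.46 ± 0.08, -0.17). Membrane proteins CD63 (1.13 ± 0.08, 0.82) and LAMP2 (0.86 ± 0.08, 1.13), the lipase LIPA (0.83 ± 0.08, 0.82), the glucosidase GAA (1.01 ± 0.16, 1.02) and the proton pump accessory ATP6AP2 (1.06 ± 0.09, 1.34) rose. Core pump subunits ATP6V1A (0.11) and ATP6V1H (0.05) and the lysosomal regulator TFEB (-0.23) did not pass.

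Antioxidant genes of the NRF2 list were mostly higher, 21 of 30 against 2 lower (median 0.45), and 16 against 2 with length adjustment (median 0.24). AKR1C3, an aldo-keto reductase, had 56.4, 58.6 and 53.034 CPM against 151, 177 and 166 (1.55 ± 0.09, 1.45). Catalase CAT (1.30 ± 0.09, 1.15), the glutathione peroxidase GPX4 (1.26 ± 0.09, 0.88) and NQO1, with 88.0, 77.8 and 79.9 CPM against 163, 179.7 and 199.7 (1.14 ± 0.09, 0.92), rose. The NRF2 targets HMOX1 (0.20), SRXN1 (0.02) and GCLM (0.17) did not pass, OSGIN1 fell (-2.08 ± 0.40), and the thioredoxin gene TXN (0.68 ± 0.10, length-adjusted 0.14) and FTL (0.66 ± 0.08, 0.08) were called before adjustment only.

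Genes of the cell cycle moved in both directions. MKI67, the proliferation antigen, had 159, 165 and 188 CPM in control and 54.3, 64.3 and 72.0 CPM in KO libraries (-1.43 ± 0.11, length-adjusted -1.01), and the kinetochore proteins CENPE (-1.85 ± 0.13, -1.54) and CENPF (-1.02 ± 0.12, -0.63) fell with it. BIRC5, survivin, had 44.0, 50.8 and 51.0 CPM against 95.4, 99.8 and 132 (1.16 ± 0.12, 1.04), and CDK1 (0.69 ± 0.12, 0.59) and CCNB1 (0.64 ± 0.10, 0.33) rose. PLK1 did not pass (0.02), and TOP2A was higher with length adjustment only (0.09, length-adjusted 0.19). In all 13 of 32 tested mitotic genes (34 listed) rose and 10 fell, 9 and 10 adjusted. Of 34 replication genes 8 rose and 12 fell, 4 and 11 adjusted: DNMT1 (-1.16 ± 0.10, -0.87), UHRF1 (-1.12 ± 0.13, -1.12) and POLE (-1.19 ± 0.13, -0.69) fell, GINS2 rose (1.04 ± 0.19, 0.85), and PCNA was called before adjustment only (0.46 ± 0.13, -0.02). CDKN1A, the cell cycle inhibitor p21, had 649, 664 and 695 CPM against 802, 809 and 698. Its small rise (0.20 ± 0.08, adjusted p = 0.0311) was absent with length adjustment (-0.01), and only leaving out KO replicate 3 kept the call among the fits with a library left out (adjusted p 0.0504 to 0.135 in the others).

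In the list of glycolysis and hypoxia 14 of 29 tested rose and 8 fell (31 listed; 14 and 6 adjusted). Hypoxia-responsive ADM had 37.1, 37.7 and 42.7 CPM against 101.34, 97.8 and 86.9 (1.29 ± 0.10, 0.96), and the carbonic anhydrase CA9 (2.83 to 15.5 CPM; 2.41 ± 0.41, 1.96), P4HA1 (1.15 ± 0.10, 0.95) and PDK1 (0.94 ± 0.18, 1.41) rose. The hexokinases HK1 (-0.54 ± 0.09) and HK2 (-0.79 ± 0.14) fell and LDHA did not pass (-0.03). Of 30 genes of endoplasmic reticulum stress and ATF4 targets 11 rose and 4 fell (10 and 5 adjusted): TRIB3 (1.10 ± 0.16, 0.90) and CHAC1 (2.62, 1.69 and 0.899 against 6.51, 8.3 and 7.1 CPM; 2.06 ± 0.40, 1.70) rose and SLC7A5 fell (-0.50 ± 0.08, -0.51), while the chaperone HSPA5 did not pass (-0.03). Heat shock genes were evenly split, 8 and 8 of 25 (7 and 9 adjusted). The small heat shock protein HSPB8 had 57.6, 47.9 and 51.1 CPM against 20.4, 20.9 and 16.7 (-1.42 ± 0.15, -1.57) and its partner BAG3 131, 139.7 and 143 against 86.4, 93.5 and 78.5 (-0.68 ± 0.09, -0.93). The near-identical HSPA1A (-0.39 ± 0.13) and HSPA1B (-0.84 ± 0.10) fell, and the chaperonin subunits CCT4 (0.65 ± 0.08, 0.39) and CCT5 (0.61 ± 0.09, 0.65) rose.

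Beside GLDC, genes of glycine and one-carbon metabolism had 7 of 20 tested higher and 7 lower (21 listed; 7 and 6 adjusted). AHCY, which clears S-adenosylhomocysteine, had 579, 598 and 578 CPM against 1121, 1293 and 1361 (1.11 ± 0.08, 0.99), and the folate enzyme MTHFD1L fell (43.9, 48.6 and 44.8 CPM against 23.6, 21.4 and 20.5; -1.06 ± 0.13, -1.07). Other parts of the glycine cleavage system did not follow GLDC by such amounts: DLD had 0.30 ± 0.08 and GCSH 0.35 ± 0.28, the latter not called. In retinoid metabolism 4 of 15 tested rose and 4 fell (22 listed), 53.3% called against 51.9% over all genes. CRABP2, which delivers retinoic acid to its nuclear receptor, had 92.5, 90.9 and 84.7 CPM against 341, 345 and 366 (1.97 ± 0.10, length-adjusted 1.44), and the retinol dehydrogenase DHRS9 1.42, 1.26 and 1.91 against 10.8, 12.8 and 14.4 (3.04 ± 0.31, 2.91). DHRS3, which returns retinal to retinol, rose (0.89 ± 0.08, 0.73) and the retinaldehyde dehydrogenase ALDH1A3 fell (-0.45 ± 0.07, -0.43). Receptors RARG (-0.25 ± 0.08) and RXRA (-0.32 ± 0.09, length-adjusted 0.08) were lower, RXRA before adjustment only.

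The translation apparatus gained most in CPM. EEF1A1, the factor that brings aminoacyl-tRNA to the ribosome, had 9808, 9697 and 9838 CPM in control and 23611, 26709 and 25299 CPM in KO libraries (1.37 ± 0.07, length-adjusted 1.39). It was the gene with the largest share of counts in KO libraries (2.23% to 2.53%), in the place KRT5 held in control libraries (1.10% to 1.14%). All 48 listed cytosolic ribosomal protein genes rose, with a median of 1.14, of 0.93 with length adjustment and of 0.66 when the length of the principal transcript was used, where 46 were still called and none fell. The list is not complete, and its members were chosen with earlier results of these data known. Outside it, some genes with ribosomal protein names did not pass. The choice matters here because their exon length in the annotation has a median of 3652 bases and their principal transcript one of 1080. RPS18 had 914, 701 and 666 CPM against 2732, 2807 and 3183 (1.93 ± 0.14, length-adjusted 1.53) and RPS14 1003, 865 and 766 against 2509, 2812 and 3119.8 (1.68 ± 0.12, 1.68). RPLP0, of the ribosomal stalk, had 2071, 1811 and 1838 CPM against 4869, 5193 and 5624 (1.46 ± 0.09, 1.36). The smallest rise in the list was that of RPL22 (0.20 ± 0.08, 0.19). Ribosomal protein genes have many processed pseudogenes, so reads of single members are uncertain.

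Messages of the translation apparatus usually begin with a C and a run of pyrimidines, the 5′ terminal oligopyrimidine (TOP) tract, through which growth signals control their translation. The starts of 6 genes that carry this tract and are among those with the largest gains in CPM are shown with 20 bases on either side of the start (RefSeq promoter table, GRCh38.p14), the tract in capitals beginning at the first transcribed base. The places are, in this order, chr6:73521013-73521052 (minus strand), chr12:120201092-120201131 (minus), chr11:75399498-75399537 (plus), chr5:150449720-150449759 (minus), chr6:33272055-33272094 (plus) and chr19:49487588-49487627 (plus):
EEF1A1: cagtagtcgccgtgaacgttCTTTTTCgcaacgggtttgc
RPLP0: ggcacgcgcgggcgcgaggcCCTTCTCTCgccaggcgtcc
RPS3: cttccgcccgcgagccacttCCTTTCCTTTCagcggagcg
RPS14: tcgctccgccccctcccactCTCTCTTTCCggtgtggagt
RPS18: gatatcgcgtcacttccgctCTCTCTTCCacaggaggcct
RPL13A: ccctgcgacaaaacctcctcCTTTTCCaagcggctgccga
A start of this kind, a C followed by pyrimidines for at least 5 bases in all on the strand of the gene, occurred in 4.04% of 27305 promoters and in 556 of 10143 tested genes with a promoter in the table. Of those 556 genes 41.9% rose and 19.2% fell (median 0.21), and of the 9587 without it 25.9% rose and 26.9% fell (median -0.01). Without genes named as ribosomal proteins 512 remained, of which 37.3% rose and 20.9% fell (median 0.15), and length adjustment left this at 35.6% and 17.4%. For genes without the tract the length-adjusted shares were 25.3% and 23.8%. Among those of the 512 that rose were TPT1 (log2 fold change 1.41, length-adjusted 1.56) and the nascent-chain factors BTF3 (0.83, 0.53) and NACA (0.65, 0.96). Among those that fell were TNK2 (-1.615, -1.234), EP400 (-1.42, -0.89) and MAVS (-1.13, -0.75). Of the 48 listed ribosomal protein genes 37 had a promoter in the table, 24 with the tract by this search (median 1.21) and 13 without (median 1.00). Because all 48 rose, their calls cannot show whether the tract separates ribosomal protein genes from each other. A start that differs by a few bases from the one in the table changes the result of this search.

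Respiratory chain genes of the nucleus and of the mitochondrial genome moved in opposite directions. Of 46 tested nuclear genes (47 listed) 41 rose and none fell (median 0.90), 38 and 0 with length adjustment (median 0.63) and 33 and 0 by principal transcript length (median 0.45). COX4I1, of complex IV, had 273, 267 and 259 CPM in control and 582, 612 and 612 CPM in KO libraries (1.18 ± 0.08, length-adjusted 1.17), and NDUFB5, of complex I, 82.2, 72.0 and 78.7 against 193, 194 and 220.2 (1.38 ± 0.10, 1.44). SDHD, of complex II, whose subunits are all nuclear, rose too (1.06 ± 0.09, 0.82). Of the 13 mRNAs of the mitochondrial genome 12 fell and none rose (median -0.98), and all 13 fell with length adjustment (median -1.61). MT-ND4 had 2497, 2777 and 2851 CPM against 765, 1239 and 1352 (-1.28 ± 0.13, -1.76), and MT-ND5 1086, 1276 and 1428 against 315, 617 and 589.8 (-1.32 ± 0.16, -1.73). KO replicate 1 was the lowest library for both. MT-CO1 (4585, 5055 and 5413 CPM against 2297, 3562 and 3934) fell less (-0.62 ± 0.13, -1.08) and MT-CO3 was called only with adjustment (-0.17 ± 0.11, -0.77). These messages are short, with a median of 784 bases, so they fell against the length trend and the adjustment enlarged their difference. Proteasome subunits had 16 of 31 higher and 3 lower, 14 and 4 with length adjustment but 13 and 9 by principal transcript length. Subunits of the core particle such as PSMA5 (112, 107 and 95.3 CPM against 194, 199.8 and 219.8; 0.96 ± 0.10, 1.01) and PSMB3 (1.08 ± 0.12, 0.56) rose, and those that fell, PSMD1 (-0.46 ± 0.08), PSMD2 (-0.45 ± 0.08) and PSMD11 (-0.50 ± 0.09), belong to the regulatory cap.

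**Figure D3:**
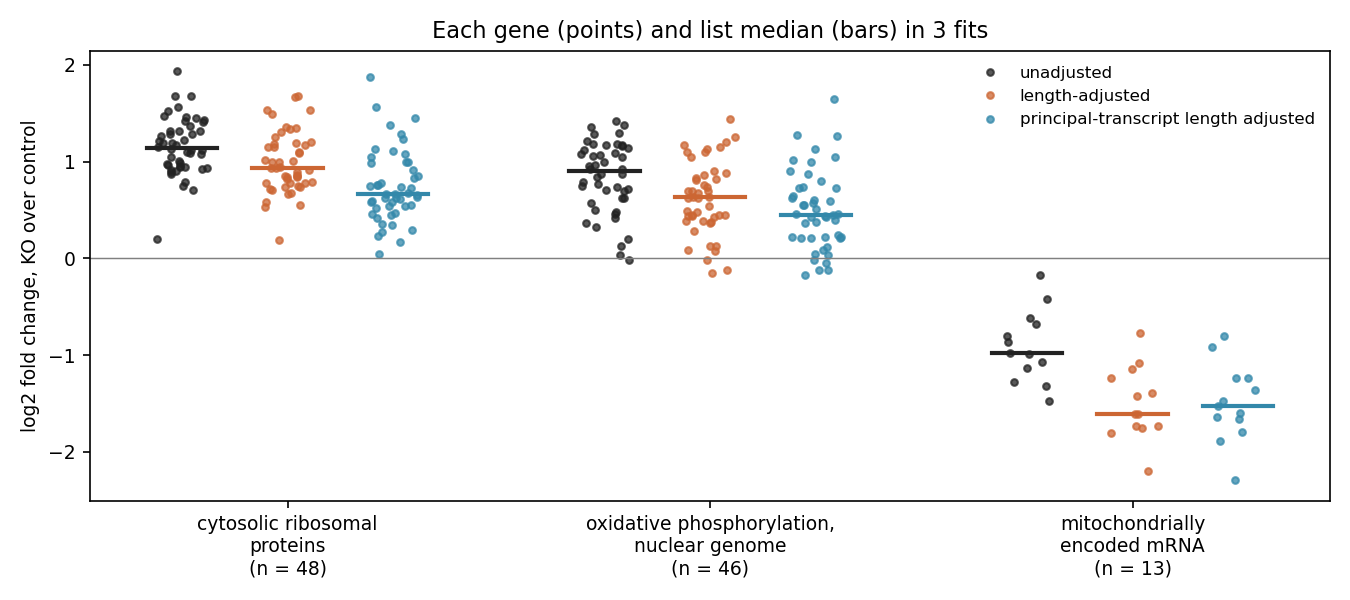
Log2 fold change of KO over control for each tested gene (points) of 3 lists, with the list median (bars), in the unadjusted fit, the length-adjusted fit and the fit adjusted by principal transcript length. Medians are 1.14, 0.93 and 0.66 for ribosomal proteins, 0.90, 0.63 and 0.45 for nuclear respiratory genes and -0.98, -1.61 and -1.53 for mitochondrially encoded mRNA.

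**Figure D4:**
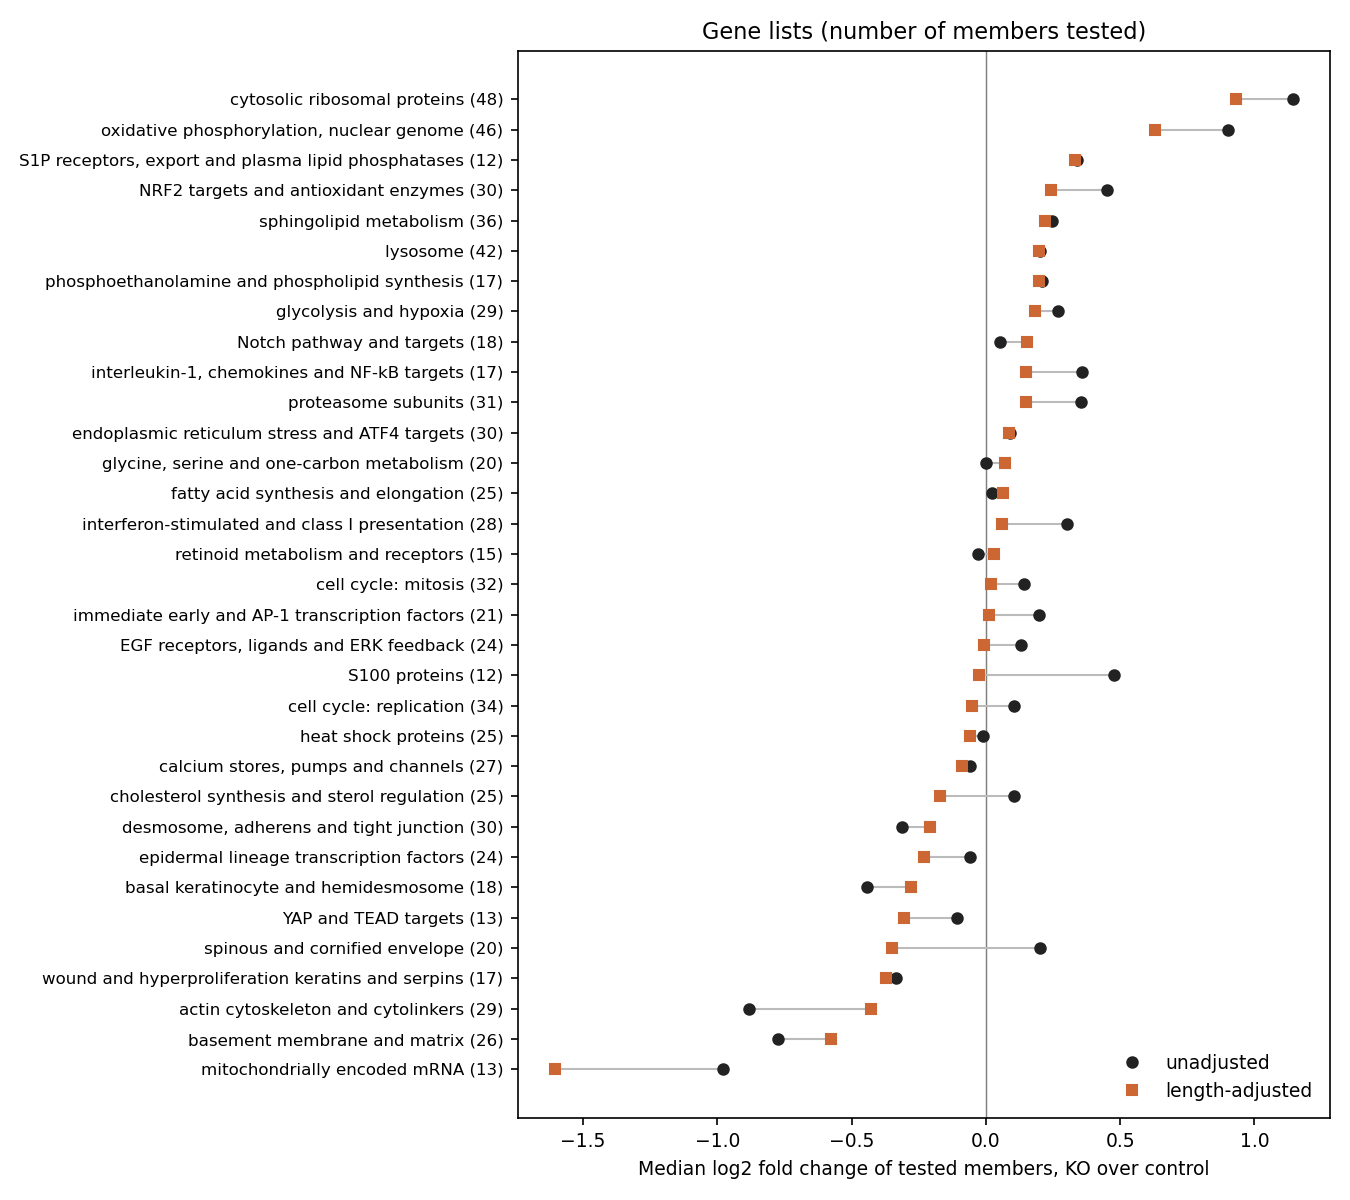
Median log2 fold change of the tested members of 33 gene lists (number tested in brackets), unadjusted (circles) and length-adjusted (squares), ordered by the adjusted median. Ribosomal proteins (1.14 and 0.93) and mitochondrially encoded mRNA (-0.98 and -1.61) lie at the ends, and the longest lines belong to mitochondrially encoded mRNA, cornified envelope (0.20 and -0.35), S100 (0.48 and -0.02) and actin genes (-0.88 and -0.43).

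Fold changes also varied by chromosomal position, a pattern that was noticed in the data and is given as a description. In 454 overlapping windows of 100 neighbouring tested genes the median length-adjusted fold change lay between -0.39 and 0.52, with a median over windows of -0.02. The highest windows were at the end of the long arm of chromosome 1 and on the short arm of chromosome 5. In chromosome 1, 223779893 to 245127164, 61 genes rose and 4 fell with adjustment, and the window medians in the 3 KO libraries relative to control were 0.53, 0.54 and 0.49. OE libraries had 0.14, 0.17 and 0.12 there. In chromosome 5, 196868 to 43313512 (CCDC127 to HMGCS1), 57 rose and 9 fell. KO libraries had 0.57, 0.47 and 0.49 there, OE libraries -0.05, -0.01 and -0.06. The lowest window was in chromosome 17, 4269259 to 8630761 (UBE2G1 to MYH10), where 15 rose and 38 fell. KO libraries had -0.28, -0.34 and -0.37 there, OE libraries 0.06, 0.02 and 0.10. In each window the 3 KO libraries lay on the same side of every OE and control library. DNA copy number was not measured here, and its part in these differences was not tested.

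**Figure D5:**
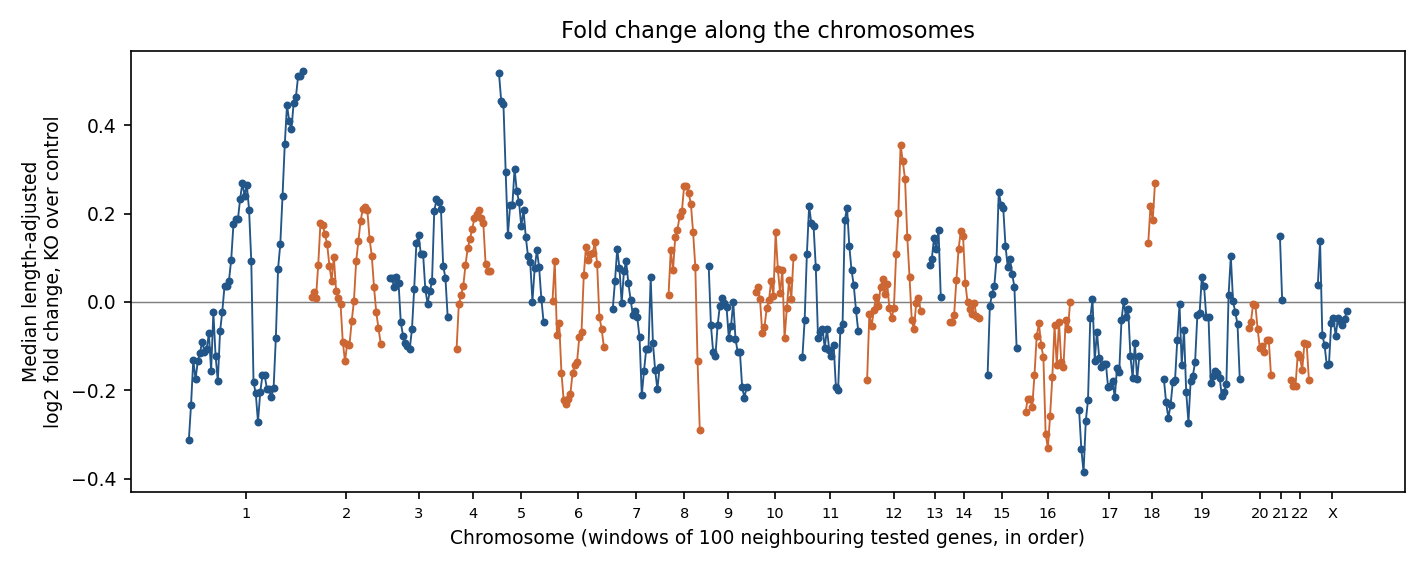
Median length-adjusted log2 fold change of KO over control in windows of 100 neighbouring tested genes, in order along each chromosome (alternating colours). The windows at the end of chromosome 1 and the start of chromosome 5 reach 0.52, and the lowest, on chromosome 17, -0.39.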

How the data were processed

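RNA was sequenced from 3 control and 3 SGPL1 KO libraries of N/TERT keratinocytes. Per the file headers, the deposited values are raw counts per gene made by the authors with featureCounts 1.5.2, 1 file per library, with no strand option, so overlapping and antisense genes cannot be told apart. The submitters' processing notes list FastQC, HISAT2 1.03, Subread, featureCounts 0.1.0, DESeq2 and GRCh38, without their order. Symbols came from Ensembl release 101 names and gene types from GENCODE 29. One gene, ANK2, has truncated coordinates in the files.

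From the counts, 13390 of 60671 genes passed edgeR's filter at a minimum count of 10. Counts of all 9 libraries entered 1 quasi-likelihood fit with TMM scaling (R 4.3.3, edgeR 4.0.16, limma 3.58.1), so the groups share 1 estimate of the spread (biological coefficient of variation 10.2%), with Benjamini-Hochberg adjustment and a threshold of 0.05. For the length adjustment, a loess curve (span 0.3) of each library's log2 CPM (prior count 2), relative to the mean over libraries, on log2 exon length was added to its offsets. An alternative used the length of the principal GENCODE transcript, which 13341 tested genes (99.63%) had, and a further one exon length together with GC content. Alternatives included DESeq2 1.42.0, limma-voom, other filters, a replicate block and leaving out each library. Scripts were tested on simulated counts.

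The rule for named genes took SGPL1, and protein-coding genes called the same way in both fits: by fold, 10 in each direction at 5 CPM or more and without overlap, and by CPM difference, 10 in each direction. It added up to 4 called genes per list by smallest p, 6 genes called in opposite directions, genes with 0 counts in a group and a fixed set. Other list members were picked as examples after their values were seen. The 39 lists (989 entries, 987 found) and all members were chosen with earlier results of these data known. A few genes and 1 list are not reported here.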

Additional observations from a re-analysis of the deposited data

How the results depend on the processing

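At least 2-fold differences were called for 1724 genes, 851 higher and 873 lower. The slope of fold change on log2 exon length was -0.22 and became 0.038 with length adjustment. Across the adjustments, tools and filters, a replicate block and a fit of only KO and control libraries, totals of genes changed in KO against control ranged from 6048 (length and GC adjusted, 4676 shared with the 6951) to 7074 (only KO and control libraries). Leaving out 1 library gave 6056 to 6514 genes, or 5590 to 6031 with length adjustment as well, and a threshold of 0.01 gave 5458.

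Signs turned for genes that include the following. With length adjustment NFIA had 0.46, SPG7 0.32, ARIH1 0.27, NCKAP1 0.31, MSI2 0.26, S100A11 -0.40 and CDKN1A -0.010, and beyond these IVL had -0.19, RXRA 0.08, PCNA -0.02 and AREG -0.38. By principal transcript length ARIH1 had 0.49 and S100A11 -0.48, a choice made after seeing the data. Adjusted for length and GC, NFIA had 0.33, SPG7 0.70, ARIH1 0.14, NCKAP1 0.14, MSI2 0.50, S100A11 -0.51, NOTCH3 0.036, EPCAM -0.049 and STIM1 0.12. The cause was not tested. DESeq2 size factors, the DESeq2 Wald test, limma-voom and the fit without a filter reversed none of the 204 named genes, and the 1 CPM filter none of the 200 it kept. Of these 204 genes 198 were called in the main fit, many picked by p, fold or CPM difference in the same counts. The absence of reversals is therefore no independent check.

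Replicate numbers did not pair the libraries: deviations of same-numbered KO and control libraries correlated at 0.00, 0.03 and -0.03. With a replicate block 6971 genes were called, 6762 of them shared. The replicate block with length adjustment, added after seeing the data, gave 6321 genes and the values NFIA 0.47, SPG7 0.32, ARIH1 0.27, NCKAP1 0.31, MSI2 0.25, S100A11 -0.47, IVL -0.21 and CDKN1A -0.035.

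Depth limits genes with few counts, such as SGCE and ENSG00000285831, and the 13 genes without counts in KO libraries have only a lower bound on their fold. A group size of 3 libraries limits the precision of each value.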

Other observations

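Gene types other than protein-coding genes differed from each other in direction. Over all genes 26% were called higher and 25.9% lower, and 24.6% and 23.9% with length adjustment. Of 362 tested processed pseudogenes, intronless copies of mRNA, 157 were called higher and 14 lower in KO cells (median log2 fold change 0.74), and 72 and 34 with length adjustment (median 0.16). Their median length was 681 bases, and reads of their parent genes can be counted in them. Of 158 transcribed unprocessed pseudogenes 6 were higher and 50 lower (4 and 55 with length adjustment), and of 51 other unprocessed pseudogenes 2 and 18 (2 and 27). Of 322 lincRNA genes 37 were higher and 42 lower (38 and 56 with length adjustment), and of 338 antisense genes 30 and 36 (26 and 44). Both of these types were near even without adjustment and were called less often than all genes.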
